A study of Triticum aestivum with 12 samples.

Results

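Roots of the wheat genotype labelled Null Control were compared with roots of Pavon76, a spring bread wheat cultivar. The comparison used 8 of the 12 arrays of the series: 4 of Null Control and 4 of Pavon76, chosen by their titles and matched by water condition and replicate number. In each genotype, 2 arrays came from well-watered seedlings, which received water every day, and 2 from stressed seedlings, which received it every second day. All seedlings grew in sand, and their root tissue was taken at 18 days of age. The other 4 arrays, of Pavon-TL, were used as a further point of reference for each probe set that differed. Pavon-TL is known, outside the labels, as a translocation line that carries chromatin of a related species in a Pavon background. The labels do not describe how Null Control was derived or which alleles it carries. Nor do they tell whether replicate arrays hold different plants, so the p-values measure the spread between these arrays, which may be technical.

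Bread wheat is an allohexaploid, so most of its genes exist as near-identical copies on 3 related subgenomes, and a probe set on an expression array can read 1 copy or several. Lines bred from 1 cultivar usually share most of their genome. A difference in signal between related wheat lines can come from a change in transcript amount or from a sequence difference in the probed stretch, and an expression array cannot tell these apart. In bulk root tissue, fewer cells that express a gene and less RNA per cell cannot be told apart either.

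Of the 61179 probe sets tested, 1273 had a gene in the annotation used here, and none of the probe sets called below was among them. They are therefore given by their Affymetrix probe set names. Array medians lay between 5.89 and 5.93 on the deposited log2 scale. Across probe sets, Null Control and Pavon76 arrays of the same water condition and number correlated at 0.993 to 0.996 (4 pairs). Arrays of 1 group with different numbers correlated at 0.982 to 0.987, also over 4 pairs. No root cell type was checked, since no set of root cell type markers is annotated by symbol.

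Null Control and Pavon76 roots had nearly the same transcript levels, and 3 probe sets stood apart from that similarity by 16-fold or more. Ta.28803.1.A1_at, Ta.3211.1.S1_at and TaAffx.64850.1.A1_at were higher in Null Control on every array, under both water conditions. Over all probe sets the difference had a median of 0.003 and an SD of 0.13 on the log2 scale, and 99.4% of the differences were smaller than 0.5. Averaged over the water conditions, limma called 3 probe sets at an adjusted p below 0.05, 3 higher and 0 lower in Null Control, or 0.0049% of those tested. With the replicate number as a block, it called 9, 9 higher and 0 lower, or 0.0147%. Before adjustment, 1249 probe sets had a p under 0.05 without the block and 3158 with it.

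Leaving out the first stressed Null Control array raised the counts to 6 without the block and 15 with it. Leaving out any of the other 7 arrays left the count without the block at 3. With the block, the count was 13 without the first stressed Pavon76 array, and 5 of these and 5 of the 15 were lower in Null Control. It was 6 without either well-watered Pavon76 array or without the first well-watered Null Control array. With the block and only the 8 arrays of both genotypes in the fit, 18 probe sets were called (0.0294%), 12 higher and 6 lower. The absence of lower calls therefore depended on which arrays were in the fit. Leaving out a Null Control or Pavon76 array changes the estimated difference as well as the spread, and these effects were not tested apart.

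**Figure D1:**
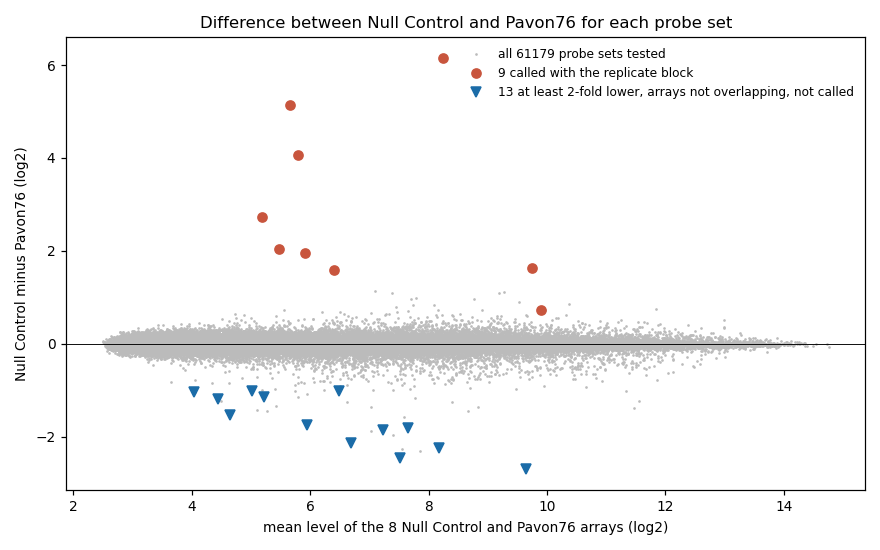
Each point is a probe set, placed by its mean level over the 8 arrays (horizontal, log2) and by Null Control minus Pavon76 (vertical, log2). The grey band holds 99.4% of the differences within 0.5 of 0, the red circles are the 9 probe sets called with the replicate block, and the blue triangles are the 13 probe sets at least 2-fold lower in Null Control whose arrays did not overlap, none of which was called by either fit.

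Ta.28803.1.A1_at had the largest difference of all probe sets. Its log2 level on the Pavon76 arrays was 5.52 and 4.59 under well water and 5.23 and 5.31 under stress. On the Null Control arrays it was 11.09 and 11.42 under well water and 11.24 and 11.53 under stress. All 4 Null Control arrays lay far above all 4 Pavon76 arrays. The means were 11.32 ± 0.19 in Null Control and 5.16 ± 0.40 in Pavon76 (SD, n = 4 each), which placed the probe set at percentile 96.5 of all levels in Null Control and 38.3 in Pavon76. The log2 difference was 6.16 ± 0.27 (SE), a 71.3-fold difference, with a limma adjusted p of 0.000352 (3.55e-06 with the block). It was 5.79 between arrays numbered 1 and 6.52 between arrays numbered 2. No detection calls were used, so the low Pavon76 value is not a statement that the transcript was absent there.

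On the Pavon-TL arrays Ta.28803.1.A1_at read 11.19 and 11.48 under well water and 11.73 and 10.65 under stress. The Pavon-TL arrays overlapped those of Null Control and were all above those of Pavon76. Pavon-TL minus Null Control was -0.06 ± 0.27 (SE), against 6.10 ± 0.27 for Pavon-TL minus Pavon76. These differences share the Pavon-TL arrays.

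Ta.3211.1.S1_at was near the bottom of the scale in Pavon76, with log2 levels of 3.06, 2.85, 3.35 and 3.10 in the order well-watered 1 and 2, stressed 1 and 2. In the same order the Null Control levels were 8.06, 8.55, 7.88 and 8.40. The groups did not overlap, and the second array was the higher of each Null Control pair. The log2 difference was 5.13 ± 0.24 (SE), or 35.1-fold, with a limma adjusted p of 0.000352. Pavon-TL read 8.11, 8.38, 8.55 and 7.46, and Pavon-TL minus Null Control was -0.09 ± 0.24 (SE). The second stressed Pavon-TL array was below all 4 Null Control arrays, and the other Pavon-TL arrays lay among them or level with the highest.

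TaAffx.64850.1.A1_at read 3.52, 3.76, 3.88 and 3.84 in Pavon76 and 7.80, 7.96, 7.76 and 7.79 in Null Control, in the same order. The 4 Null Control arrays differed among themselves by less than the Pavon76 arrays did, with SDs of 0.09 and 0.16. The log2 difference was 4.07 ± 0.22 (SE), or 16.8-fold, with a limma adjusted p of 0.000774. Pavon-TL read 7.79, 7.79, 8.29 and 7.08, which again placed the second stressed array lowest. Pavon-TL minus Null Control was -0.09 ± 0.22 (SE).

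The 3 differences were of similar size in both water conditions. Under well water, limma called these 3 probe sets (0.0049%), with differences of 6.20, 5.35 and 4.24. Under stress it called 3 (0.0049%), with differences of 6.11, 4.92 and 3.91. Leaving out 1 array of a condition left a lone array in that arm, whose spread is then assumed to equal that of the other groups. Without the block this lowered the count to 1 for the first well-watered Pavon76 array and to 0 for each of the other 7 arrays in its own condition.

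**Figure D2:**
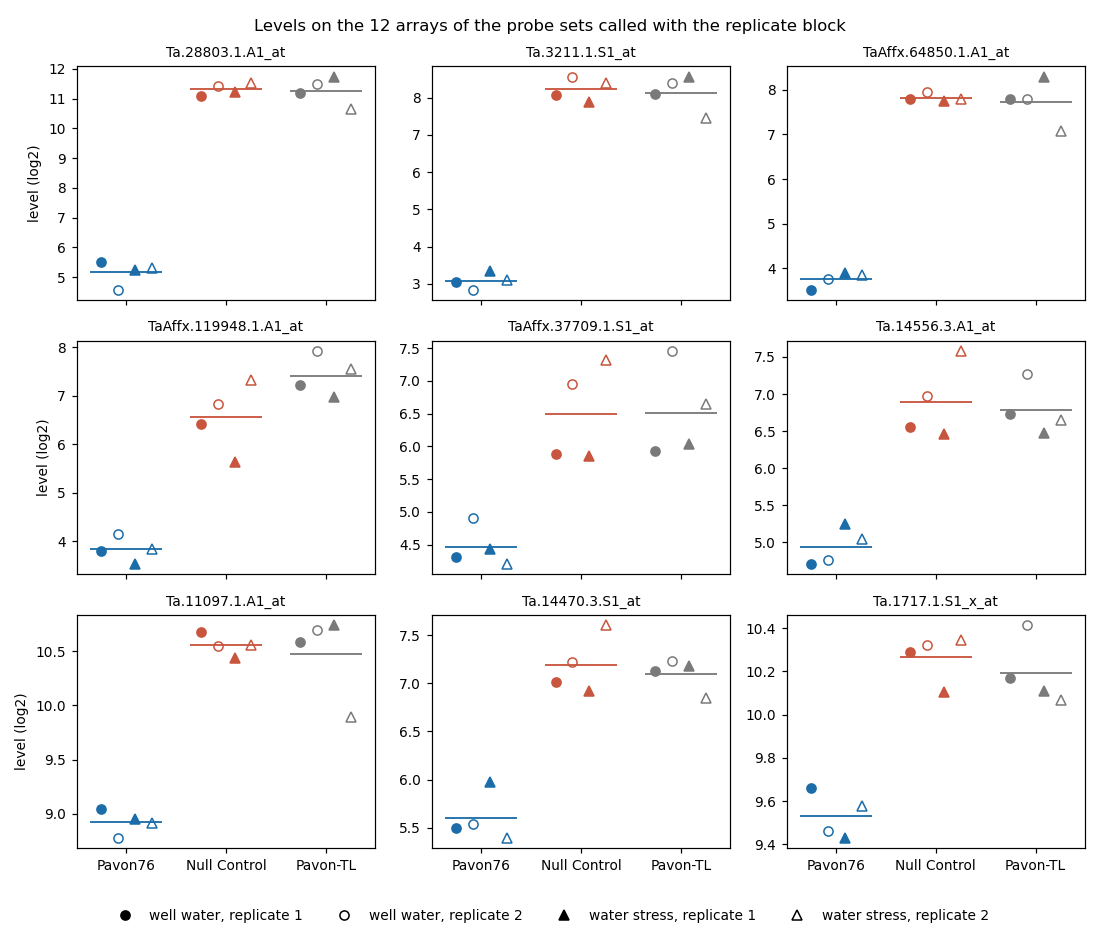
Log2 level on each of the 12 arrays for the 9 probe sets called with the replicate block, with 1 panel per probe set and its own vertical scale. Circles are well-watered and triangles stressed roots, filled symbols replicate 1 and open symbols replicate 2, and lines are means of 4 arrays. In each panel the Null Control and Pavon-TL arrays lie above all Pavon76 arrays.

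The other 6 probe sets were called only with the block over the 12 arrays, and all were higher in Null Control in 4 of 4 matched pairs. Of the 6, 3 kept the call in under 2 of 3 blocked alternatives: Ta.14470.3.S1_at in 7 of 12, TaAffx.37709.1.S1_at in 5 of 11 and Ta.1717.1.S1_x_at in 1 of 12. The blocked fit over the 12 arrays, which made these calls, is 1 of those alternatives, and it gave Ta.1717.1.S1_x_at its only pass. In all 6 the 8 arrays did not overlap between the genotypes, which by itself makes all 4 matched pairs higher. Arrays of Null Control were all above those of Pavon76 in 664 probe sets (1.09%) and all below in 404 (0.66%), so separation of the arrays alone was far more frequent than a call.

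TaAffx.119948.1.A1_at read 3.80, 4.15, 3.54 and 3.84 in Pavon76 and 6.42, 6.84, 5.64 and 7.32 in Null Control. The log2 difference was 2.72 ± 0.35 (SE), or 6.59-fold, with a limma adjusted p of 0.294 without the block and 0.000461 with it. It was the 1 called probe set in which Pavon-TL was not placed at the Null Control level. Pavon-TL read 7.22, 7.92, 6.97 and 7.55, above its matched Null Control array in 4 of 4 pairs. Pavon-TL minus Null Control was 0.86 ± 0.35 (SE), which limma did not call (adjusted p of 1 without the block and 0.105 with it).

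TaAffx.37709.1.S1_at read 4.31, 4.90, 4.43 and 4.21 in Pavon76 and 5.88, 6.95, 5.85 and 7.32 in Null Control. The arrays numbered 2 were the higher of each Null Control pair by 1 log2 unit or more. The difference was 2.04 ± 0.44 (SE), with a limma adjusted p of 1, and of 0.0325 with the block. Ta.11097.1.A1_at was an abundant transcript on these arrays, with Pavon76 levels of 9.05, 8.78, 8.95 and 8.92 and Null Control levels of 10.68, 10.55, 10.44 and 10.56. Its difference was 1.63 ± 0.17 (SE), with a limma adjusted p of 0.101, and of 0.00292 with the block. Pavon-TL was placed at the Null Control level in both probe sets.

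In 2 of the probe sets called with the block, the other probe sets of the same transcript cluster did not move with them. A cluster is a group of expressed sequences that the array's design numbered together. Ta.14556.3.A1_at read 4.71, 4.76, 5.24 and 5.04 in Pavon76 and 6.55, 6.98, 6.46 and 7.58 in Null Control, a difference of 1.95 ± 0.24 (SE, limma adjusted p of 0.258, and 0.00292 with the block). The 3 other probe sets of cluster Ta.14556 differed by -0.06, 0.01 and 0.03, at mean levels from 8.95 to 9.88 in Null Control. Ta.14470.3.S1_at read 5.5, 5.54, 5.97 and 5.40 in Pavon76 and 7.01, 7.21, 6.92 and 7.60 in Null Control. Its difference was 1.59 ± 0.18 (SE, limma adjusted p of 0.162, and 0.0127 with the block). The 4 other probe sets of cluster Ta.14470 differed by -0.14 to -0.03.

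Cluster Ta.1717 was the exception, since both of its probe sets differed by the same amount. Their names differ only in the ending, so both may read the same sequence, and their agreement is not separate evidence. Ta.1717.1.S1_x_at read 9.66, 9.46, 9.43 and 9.58 in Pavon76 and 10.29, 10.32, 10.11 and 10.35 in Null Control. Its difference of 0.73 ± 0.09 (SE), or 1.66-fold, was the smallest of the 9, with a limma adjusted p of 0.0497 with the block. Ta.1717.1.S1_at differed by 0.73 ± 0.10 (SE), with a limma adjusted p of 0.0748 with the block. The names ending in _x_at mark probe sets whose probes can match other sequences too. The other 6 called probe sets were alone in their clusters.

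For 8 of the 9 probe sets, the Pavon-TL mean lay within 0.25 of the Null Control mean on a scale that runs from 0 at the Pavon76 mean to 1 at the Null Control mean. The positions ran from 0.90 to 1.01 in these 8, and TaAffx.119948.1.A1_at stood at 1.32. All 4 Pavon-TL arrays were above all 4 Pavon76 arrays in 9 of 9, and they overlapped Null Control in 9 of 9. Of all 61179 probe sets, Pavon-TL was placed at the Null Control level in 8223 and beyond both genotypes in 37536. For 95.5% of all probe sets Null Control and Pavon76 differed by less than 0.25 on the log2 scale. The position divides by that difference and is unstable there, so 8223 is no base rate for the 9. The Pavon-TL arrays stood apart from those of Pavon76, in either direction, in 1873, and from those of Null Control in 1505. Overlap with Null Control was thus the usual case. Over the whole array, limma called 103 probe sets between Pavon-TL and Pavon76 (0.168%, 19 higher and 84 lower in Pavon-TL) and 93 between Pavon-TL and Null Control (0.152%, 13 higher and 80 lower). With the block the counts were 305 (0.499%) and 352 (0.575%). These counts share the Pavon-TL arrays with each other, and each shares arrays with the comparison of Null Control and Pavon76.

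A further 2 probe sets were called in 1 water condition only, both lower in Null Control and both only with the block. With the block, limma called 7 under well water (0.0114%, 6 higher and 1 lower) and 5 under stress (0.00817%, 4 higher and 1 lower). Among the higher probe sets described above, Ta.11097.1.A1_at and Ta.14556.3.A1_at were called under well water and not under stress. Their limma adjusted p with the block was 0.0485 under well water and 0.098 under stress for each. TaAffx.92191.1.A1_at differed by -1.64 under well water (limma adjusted p of 0.0485 with the block) and by 0.14 under stress. Its Pavon76 levels were 9.72 and 8.92 under well water, against 8.44 and 6.93 in Null Control. The Pavon-TL levels there were 7.46 and 6.78, lower than the matched Null Control arrays. Ta.22508.1.A1_at differed by -1.01 under stress (limma adjusted p of 0.0245 with the block) and by 0.06 under well water. Its stressed levels were 5.75 and 7.08 in Pavon76, 4.78 and 6.02 in Null Control, and 4.81 and 5.94 in Pavon-TL.

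A change of the genotype difference between the water conditions was tested as an interaction, the difference under stress less that under well water. limma called 0 probe sets without the block (0%) and 0 with it (0%). Before adjustment, 1648 had a p under 0.05 without the block and 3757 with it, and the smallest limma adjusted p was 0.486 with the block. For the 3 probe sets called without the block, the interaction was -0.09 ± 0.54, -0.43 ± 0.48 and -0.33 ± 0.44 (SE) for Ta.28803.1.A1_at, Ta.3211.1.S1_at and TaAffx.64850.1.A1_at. These errors leave room for changes of about 1 log2 unit between the conditions.

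By size alone, 13 probe sets were at least 2-fold higher in Null Control (0.0212%) and 34 at least 2-fold lower (0.0556%). Of the 13 higher, 8 were called with the block and 11 had arrays that did not overlap. Of the 34 lower, none was called by either fit over the 12 arrays and 13 had arrays that did not overlap. At 4-fold or more, 5 were higher and 6 lower, and at 16-fold or more, 3 were higher and 0 lower.

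The 3 higher probe sets with separated arrays that were not called had limma adjusted p-values of 0.0928 with the block. The blocked limma fit on the 8 arrays alone called 2 of them, Ta.21789.1.S1_at (adjusted p of 0.0274) and TaAffx.86154.1.S1_at (0.0272). Ta.8472.1.S1_at read 5.24, 5.52, 5.67 and 5.82 in Pavon76 and 7.20, 6.79, 6.68 and 8.14 in Null Control, a difference of 1.64 ± 0.28 (SE). Ta.21789.1.S1_at read 6.67, 6.22, 6.58 and 6.62 in Pavon76 and 7.73, 7.47, 7.59 and 7.88 in Null Control, a difference of 1.14 ± 0.17 (SE). Its Pavon-TL arrays, at 7.38, 7.22, 6.75 and 7.47, lay between the genotypes: all were above the Pavon76 arrays, and the highest of them reached the lowest Null Control array to 2 decimals. TaAffx.86154.1.S1_at differed by 1.10 ± 0.24 (SE), and Pavon-TL lay between the other genotypes there too.

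Of the 13 lower probe sets with separated arrays, 11 varied more between the Null Control arrays than between the Pavon76 arrays. The other 2 were TaAffx.112045.1.S1_at (SD 0.18 in Null Control and 0.52 in Pavon76) and TaAffx.97073.1.S1_at (0.38 and 0.40). The SDs of the 13 ran from 0.06 to 0.52 in Pavon76 and from 0.18 to 2.29 in Null Control, and exceeded 1 in 0 and 5 of the 13. The shares over all probe sets were not counted. A very low Null Control array raises the SD and also helps to produce the low mean by which the 13 were picked. TaAffx.2320.1.S1_at had the largest difference, -2.70 ± 1.21 (SE), with a limma adjusted p of 1 (0.887 with the block). It read 10.96, 11.10, 10.97 and 10.98 in Pavon76 and 9.53, 8.85, 9.91 and 4.93 in Null Control. In Pavon-TL it read 9.40, 4.94, 8.0 and 10.11. The second stressed array was far below the other Null Control arrays, and the second well-watered array far below the other Pavon-TL arrays.

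Ta.2981.1.A1_a_at had the same shape. It read 8.86, 8.55, 8.98 and 8.59 in Pavon76, 7.36, 6.02, 7.90 and 3.87 in Null Control, and 7.19, 3.07, 5.98 and 7.52 in Pavon-TL. Its difference was -2.46 ± 1.05 (SE). Ta.29525.1.S1_at (-2.25 ± 0.69, SE), TaAffx.118483.1.A1_at (-2.12 ± 0.78), Ta.27678.1.S1_at (-1.85 ± 0.54), Ta.11347.1.S1_at (-1.82 ± 0.73) and Ta.4511.1.S1_at (-1.74 ± 0.42) also had their lowest Null Control value on the second stressed array.

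These 2 arrays were the lowest of their genotypes together in 10 of the 13 probe sets, and in 21 of all 34 lower probe sets. Over all probe sets tested this happened in 9.16%. The second stressed array was the lowest of Null Control in 28.2% of all probe sets, and the second well-watered array the lowest of Pavon-TL in 24.3%. The lower probe sets were picked for a low Null Control mean, which a very low array there helps to produce. Some of them also share a cluster, so these counts are a description with no test.

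On the linear scale, the median level of the 13 probe sets as a percentage of their Pavon76 mean was 42.3% and 31.7% on the well-watered Null Control arrays. It was 49.6% and 13.3% on the stressed ones, where the second array ranged from 1.49% to 72.3%. On the Pavon-TL arrays it was 42.7% and 17.4% under well water and 27.7% and 50.9% under stress. In Null Control both the highest and the lowest of these medians were on stressed arrays. In Pavon-TL the lowest was on a well-watered array and the highest on a stressed one. The probe sets were picked on the same Null Control arrays, so this is a description with no test. Without the second stressed Null Control and second well-watered Pavon-TL arrays, limma called 2 probe sets without the block and 7 with it, an alternative chosen after seeing the data.

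**Figure D3:**
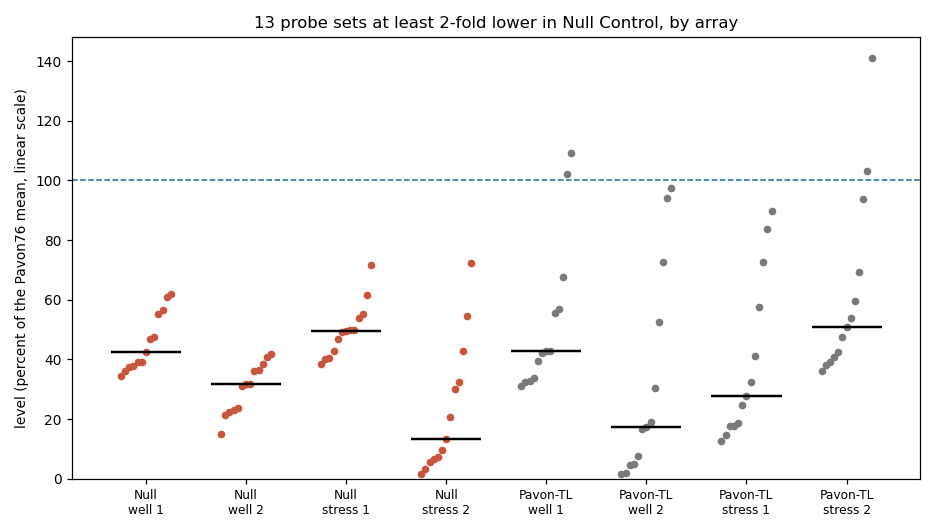
Level of 13 probe sets on each Null Control (red) and Pavon-TL (grey) array, as a percentage of the probe set's mean over the 4 Pavon76 arrays (dashed line at 100) on the linear scale. Points are probe sets, sorted within an array, and black lines are medians, which are lowest on the second stressed Null Control array (13.3%) and the second well-watered Pavon-TL array (17.4%).

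Of the 8 Null Control and Pavon-TL arrays, the 4 with the most of TaAffx.2320.1.S1_at were the 4 with the least of Ta.28803.1.A1_at and of Ta.3211.1.S1_at. On the linear scale TaAffx.2320.1.S1_at stood at 36%, 22.5%, 46.9% and 1.49% of its Pavon76 mean on the Null Control arrays, in the order well-watered 1 and 2, stressed 1 and 2. On the Pavon-TL arrays it stood at 32.9%, 1.5%, 12.5% and 54%. Ta.28803.1.A1_at stood at 64.2%, 80.5%, 71% and 87% of its highest array in Null Control and at 68.7%, 84%, 100% and 47.3% in Pavon-TL. The second stressed Pavon-TL array, highest of the 8 for TaAffx.2320.1.S1_at, was the lowest of the 8 for Ta.28803.1.A1_at, Ta.3211.1.S1_at (47%) and TaAffx.64850.1.A1_at (43.2%). The order did not hold for TaAffx.64850.1.A1_at on the other arrays: it stood at 70.5% on both the second stressed Null Control and the second well-watered Pavon-TL array, among its 4 lowest, although these held the least TaAffx.2320.1.S1_at. These probe sets were picked for their differences between Null Control and Pavon76 on the same arrays, so this is a description with no test.

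**Figure D4:**
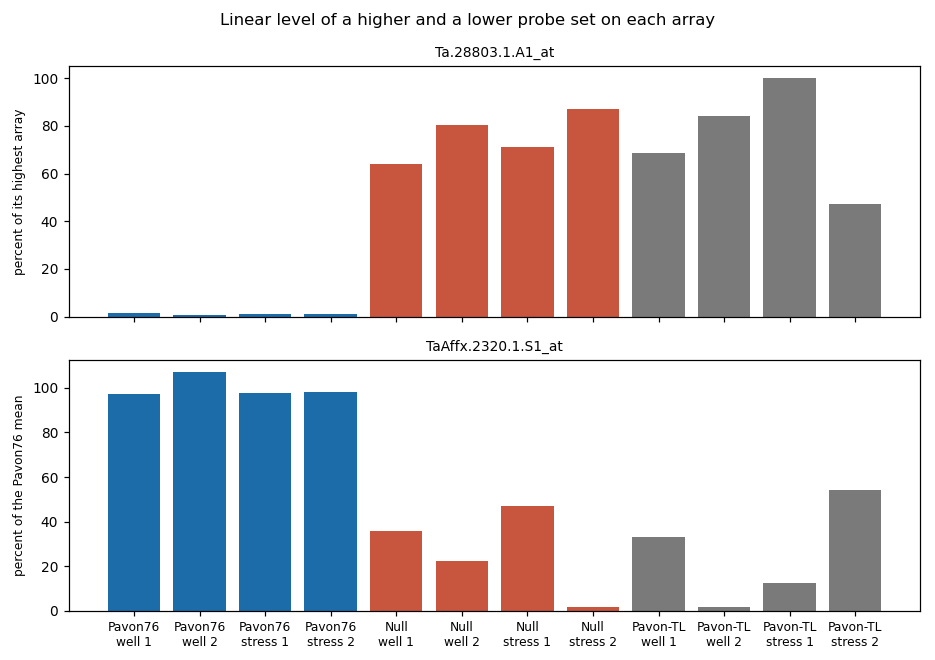
Linear level on the 12 arrays of Ta.28803.1.A1_at (top, percent of its highest array) and TaAffx.2320.1.S1_at (bottom, percent of the Pavon76 mean). Bars are single arrays, blue Pavon76, red Null Control and grey Pavon-TL. In the top panel the second stressed Pavon-TL array (47.3%) is the lowest of the 8 coloured red or grey, and in the bottom panel it is the highest of them (54%).

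Pavon-TL was placed at the Null Control level in 9 of the 13 lower probe sets, between the genotypes in 2, and at the Pavon76 level in 2. The latter were both probe sets of cluster Ta.978. Over all 61179 probe sets these counts were 8223, 8926 and 6494, and Pavon-TL was beyond both genotypes in 37536. Most of these probe sets hardly differ between Null Control and Pavon76, so the counts are no base rate for the 13. Ta.978.1.A1_at read 4.94, 4.73, 5.21 and 5.28 in Pavon76 and 4.23, 3.79, 4.05 and 3.32 in Null Control. Pavon-TL read 5.08, 4.59, 4.60 and 5.10, above every Null Control array. The difference of Null Control from Pavon76 was -1.19 ± 0.20 (SE, limma adjusted p of 0.978, and 0.0928 with the block). The blocked limma fit on the 8 arrays alone called it, at an adjusted p of 0.0272. Ta.978.1.A1_x_at differed by -1.01 ± 0.26 (SE). Among lower probe sets whose arrays overlapped, TaAffx.43752.1.A1_at (-1.44 ± 0.47), TaAffx.43752.1.A1_x_at (-1.35 ± 0.44), TaAffx.15961.1.S1_at (-1.24 ± 0.42) and Ta.22180.1.S1_x_at (-1.24 ± 0.84) had Pavon-TL means above that of Pavon76.

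Of the 34 lower probe sets, 4 had a gene in the annotation. lgul (LOC542984) encodes lactoylglutathione lyase, also called glyoxalase I, which detoxifies methylglyoxal with glutathione. Its probe set Ta.8554.1.S1_at read 5.89, 4.83, 5.70 and 5.20 in Pavon76 and 4.23, 3.35, 4.77 and 3.20 in Null Control. Every Null Control array was lower than every Pavon76 array, but the first stressed Null Control array only narrowly. The difference was -1.52 ± 0.43 (SE), with a limma adjusted p of 1 and an unadjusted p of 0.00701. With the block, limma gave an adjusted p of 0.23 over the 12 arrays and of 0.0219 over the 8 arrays alone. Pavon-TL read 4.21, 3.07, 3.61 and 4.17, close to Null Control. A second probe set of lgul, Ta.28068.1.S1_at, differed by -0.07 ± 0.16 (SE).

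The other 3 were the probe sets of LOC606359, a protein-coding gene with no name in the tables used. Ta.7388.2.S1_a_at differed by -1.43 ± 0.51 (SE), Ta.7388.2.S1_x_at by -1.14 ± 0.34 and Ta.7388.1.S1_at by -1.07 ± 0.43. In all 3 the arrays of the genotypes overlapped, and none was called. For Ta.7388.2.S1_a_at the Pavon76 levels were 6.28, 4.58, 6.44 and 5.97, and the Null Control levels 4.90, 3.96, 3.75 and 4.96. The lowest Null Control array was here the first stressed one.

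Lists of genes that can be followed by gene symbol held no call, where 0.0147% of all probe sets were called with the block. The lists include 34 leaf and 29 grain probe sets as markers of other tissues. Over 17 lists with at least 1 probe set, 147 probe sets of 68 genes were measured, of which 64 were higher, 83 lower and 0 called in Null Control by either fit. Their median difference was -0.02, against 0.00 over all probe sets tested. Before adjustment, 2 of the 147 had a p under 0.05 without the block and 8 with it, against 2.04% and 5.16% of all probe sets. Outside lgul, the differences in these lists ran from -0.45 to 0.28. A list gene with several probe sets is given by the member with the smallest p, unless more are shown.

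Dehydrins and other late embryogenesis abundant proteins protect cells during water loss. None of their 10 probe sets passed the test (2 higher, 8 lower, median -0.07). For Rab15 (LOC543293), a dehydrin, Ta.2704.1.S1_x_at read 8.44, 8.46, 8.72 and 8.85 in Pavon76 and 8.05, 8.63, 8.32 and 8.58 in Null Control, a difference of -0.22 ± 0.15 (SE). COR410, another dehydrin, differed by -0.09 ± 0.09 (SE, Ta.16419.1.S1_at). Among 8 probe sets of oxidative stress enzymes (3 higher, 5 lower), PER1 differed by -0.21 ± 0.11 (SE, Ta.24688.2.S1_a_at) and Prx1 by 0.13 ± 0.08 (SE, Ta.6572.2.S1_at). The other probe sets of Prx1 differed by -0.10, -0.10 and 0.06, and that of PER1 by -0.03. The 3 probe sets of GSTZ1, a zeta-class glutathione transferase, differed by -0.18, -0.09 and -0.04 (TaAffx.56524.1.S1_at, Ta.237.1.S1_a_at and Ta.237.1.S1_at).

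The 4 probe sets of the hormone list all belong to gibberellin 20-oxidase, an enzyme late in gibberellin synthesis, in copies named GA20ox1a, GA20ox1b and GA20ox1d. All 4 were higher in Null Control, by 0.20 to 0.28, and none passed the test. The GA20ox1d probe set Ta.141.1.S1_x_at read 6.53, 6.16, 6.29 and 6.0 in Pavon76 and 6.69, 6.24, 6.68 and 6.49 in Null Control, a difference of 0.28 ± 0.15 (SE). GA20ox1b differed by 0.28 ± 0.15 (SE, Ta.23667.1.S1_at) and GA20ox1a by 0.26 ± 0.17 (SE, Ta.23668.1.S1_at). The array ranges overlapped, and probes for these near-identical copies may read each other's transcripts. Pavon-TL was at the Pavon76 level in these 3 probe sets.

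Nutrient uptake genes varied more with the replicate number than with the genotype. DMAS1, which makes the iron-chelating phytosiderophore deoxymugineic acid, read 11.11 and 10.32 on the Pavon76 arrays numbered 1 and 8.69 and 8.33 on those numbered 2 (Ta.5335.1.A1_at). In Null Control it read 10.65 and 10.25, and 8.22 and 8.24. The genotype difference was -0.27 ± 0.86 (SE). ALMT1, a malate channel of the root tip that is activated by aluminium, differed by -0.03 ± 0.38 (SE, Ta.30659.1.S1_at). FKBP70, a peptidyl-prolyl isomerase, split by number in the same way, at 12.97 and 13.13 against 11.72 and 11.78 in Pavon76 (Ta.28955.1.S1_at), and its genotype difference was -0.06 ± 0.57 (SE).

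In phenylpropanoid and choline metabolism, COMT1, a methyltransferase of lignin synthesis, differed by 0.07 ± 0.36 (SE, Ta.336.1.S1_x_at). PEAMT1, which methylates phosphoethanolamine on the way to choline, differed by 0.11 ± 0.11 (SE, Ta.1842.1.S1_a_at). XTH, a cell wall enzyme that cuts and rejoins xyloglucan, differed by -0.34 ± 0.38 (SE, Ta.30703.1.S1_at), with array values from 6.88 to 8.61 in Null Control. Of 5 fructan and sucrose probe sets (3 higher, 2 lower), the fructan exohydrolase 6-FEH differed by -0.14 ± 0.14 (SE, Ta.9641.1.A1_a_at) and the invertase IVR1 by 0.01 ± 0.13 (SE, Ta.198.1.S1_at). By its synonym atpA, IVR1 also entered the leaf and lipid lists, and by the synonym ATP-PFK the glycolytic enzyme PFK (-0.07 ± 0.21, SE, Ta.4637.1.A1_at) entered the lipid list. LTP3, a lipid transfer protein, differed by 0.04 ± 0.10 (SE, Ta.1282.4.S1_at).

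Genes of chromatin, the cytoskeleton and translation gave 11 higher and 9 lower of 20, 3 higher and 7 lower of 10, and 3 higher and 5 lower of 8 probe sets. The histone genes wcH2A-3 and wcH2A-9 differed by 0.17 ± 0.15 (SE, Ta.27192.1.S1_s_at) and -0.26 ± 0.24 (SE, Ta.27657.12.S1_at). Other probe sets of these genes differed by 0.0037 for wcH2A-3 and by -0.00064 to 0.02 for wcH2A-9. The alpha-tubulin TUBA differed by -0.30 ± 0.61 (SE, Ta.723.1.S1_at) and the beta-tubulin Tubb4 by 0.05 ± 0.07 (SE, Ta.28022.1.S1_x_at). Another TUBA probe set, Ta.812.1.S1_x_at, differed by -0.03. The translation initiation factors eIF-2-beta and eIF4E differed by -0.09 ± 0.11 (SE, Ta.165.1.S1_at) and -0.05 ± 0.08 (SE, Ta.14707.1.S1_at). WZF1, a zinc finger protein, read 12.22, 11.81, 11.37 and 11.24 in Pavon76 and 11.75, 10.98, 11.87 and 10.42 in Null Control, a difference of -0.41 ± 0.36 (SE, Ta.103.1.S1_at). The heat shock protein gene hsp16.9A differed by 0.05 ± 0.15 (SE, Ta.24332.1.S1_at).

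Defence genes were 5 higher and 2 lower of 7 probe sets, with thionins, small antimicrobial proteins, at low levels. THI1.2 differed by 0.11 ± 0.08 (SE, Ta.91.1.S1_at) and THI1.3 by -0.13 ± 0.07 (SE, Ta.1308.1.S1_at).

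Of the markers of other tissues, limma called none between the genotypes. Of 34 probe sets in the leaf list, 28 of them for rbcl, the chloroplast gene of the large Rubisco subunit, 14 were higher and 20 lower in Null Control (median -0.02). Before adjustment, 0 of the 34 had a p under 0.05 without the block and 3 with it. These were rbcl probe sets at -0.28 ± 0.18 (SE, Ta.3807.1.A1_at) and -0.30 ± 0.15 (SE, TaAffx.128896.17.S1_s_at) and PsbP, a photosystem protein, at 0.25 ± 0.19 (SE, Ta.85.1.S1_at). Of 29 probe sets in the grain list, 15 were higher and 14 lower (median 0.00). By synonyms starting with Pur, the thionins of the defence list entered it as well, and so did the beta-glucosidase GLU1A by its symbol. There BMY1, a beta-amylase of the grain, read 5.21, 5.27, 5.81 and 5.43 in Pavon76 and 5.02, 5.24, 4.70 and 4.98 in Null Control, a difference of -0.45 ± 0.15 (SE, Ta.3.1.S1_at, unadjusted p of 0.0182, limma adjusted p of 1). Serpin-Z1C, a protease inhibitor of the grain, differed by 0.22 ± 0.11 (SE, Ta.118.1.S1_at), and the gliadin Gli-B2-11 by -0.16 ± 0.12 (SE, Ta.24114.15.A1_x_at).

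The remaining named genes with small p-values were ATI, at2G04570, GLU1A and AGA.1. ATI read 4.95, 5.09, 5.18 and 5.05 in Pavon76 and 5.31, 5.41, 5.31 and 5.25 in Null Control (Ta.23798.1.S1_s_at). Its arrays did not overlap, and the difference was 0.25 ± 0.12 (SE). The other 2 ATI probe sets differed by 0.07 ± 0.09 (SE, Ta.58.1.S1_at) and 0.04 ± 0.10 (SE, Ta.23798.1.S1_at). GLU1A, a beta-glucosidase, differed by -0.43 ± 0.29 (SE, Ta.4601.2.S1_at), with its lowest Null Control level, 10.23, on the first stressed array. at2G04570 differed by 0.12 ± 0.07 (SE, Ta.30652.1.S1_at) and AGA.1 by -0.13 ± 0.09 (SE, Ta.23665.1.A1_at). Other probe sets of these genes went the other way, at -0.05 for at2G04570 (Ta.30652.1.A1_at) and 0.14 for AGA.1 (Ta.23665.1.S1_at).

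**Figure D5:**
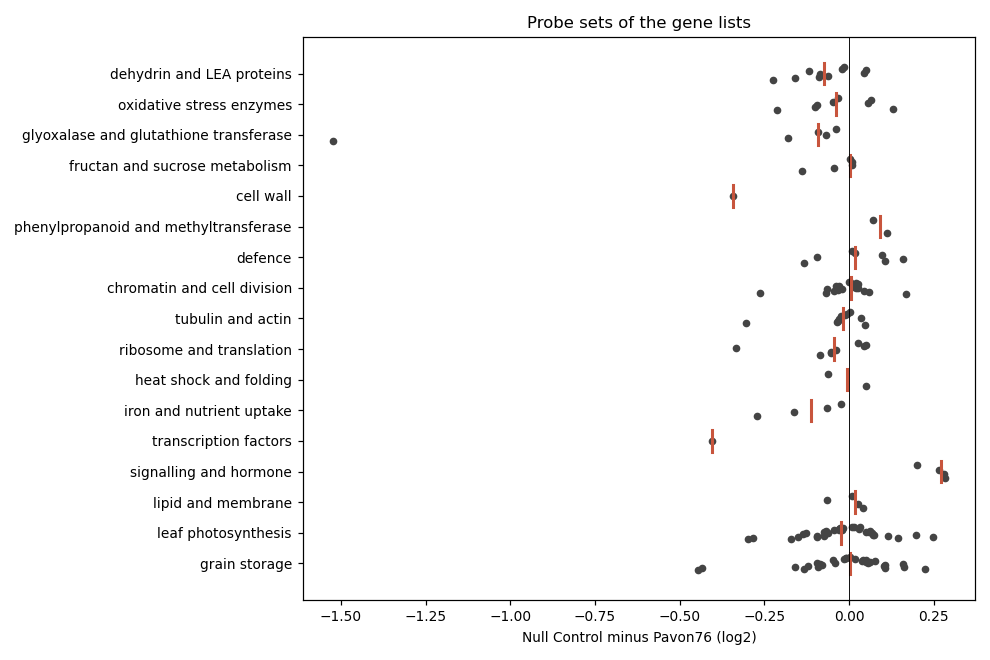
Null Control minus Pavon76 (horizontal, log2) for the probe sets of each gene list. Points are probe sets, red bars are list medians, and the lgul probe set at -1.52 is the single point beyond 0.5 in either direction. None of the 147 probe sets was called.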

How the data were processed

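The deposited values are log2 RMA values that the authors computed, per the submitters' processing notes, from 12 Affymetrix wheat arrays, and the RMA version is not given in the sources used here. RMA aligns the distributions of all arrays, so a shift of most genes would not be seen. The 111 control probe sets were left out, which left 61179. Gene symbols came from GEO's platform annotation, which is old (1273 probe sets, 771 genes, 770 of them matched to the RefSeq table of IWGSC CS RefSeq v2.1).

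A linear model of 6 group means over 12 arrays was fitted with limma 3.58.1 in R 4.3.3, moderated by empirical Bayes. Two-sided p-values were adjusted by the Benjamini-Hochberg method over all 61179 probe sets and called below 0.05. The code was tested on simulated data. The number of arrays limits the precision, and no detection calls were used.

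The replicate numbers pair the arrays: deviations from the group means correlated between same-numbered arrays at 0.606 to 0.795 in 15 of 15 pairs of groups. What a number stands for is not given. The planned fit has no block, and the blocked fit is given beside it.

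Named were called probe sets, all 2-fold differences by count with those that did not overlap, the 15 named genes with the smallest p, up to 3 members per gene list (2 shown) and the 5 smallest interaction p-values. The 18 gene lists are symbol patterns, and the list for nitrogen metabolism matched 0 probe sets. Members and lists were chosen with earlier results of these data known. Individual probe sets among the 2-fold differences were picked after their values were seen. Alternatives were the block, the 8 arrays alone, a level filter, median scaling, a variance trend, and leaving out arrays.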

Additional observations from a re-analysis of the deposited data

Results flagged for a closer look

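Among 124 probe sets, of the named results and other probe sets of named genes, 17 had matched differences that were opposite between the water conditions. In these, Null Control minus Pavon76 went the same way in both well-watered pairs and the opposite way in both stressed pairs. The share over all probe sets was not counted, so 17 is not read as a high count. Of the 17, 5 entered by their small interaction p, which favours this pattern. The interaction (difference under stress less that under well water, log2) was 0.89 for Ta.10236.1.A1_at, -0.86 for Ta.16380.1.S1_at, 0.97 for Ta.18621.1.S1_at, -0.70 for Ta.28121.1.S1_at and -0.76 for TaAffx.83236.1.S1_at, the 5 probe sets chosen for the smallest interaction p. Among genes it was 0.58 for ALMT1 (Ta.30659.1.S1_at), 0.29 for COMT1 (Ta.336.1.S1_x_at), -0.23 for PFK (Ta.4637.1.A1_at), -0.28 for ATI (Ta.23798.1.S1_at) and 0.69 for Rab15 (TaAffx.46097.2.S1_at). For GSTZ1 it was 0.57 (Ta.237.1.S1_a_at) and 0.26 (Ta.237.1.S1_at), and for DMAS1 0.45 (Ta.5335.1.A1_x_at) and 0.65 (Ta.5335.3.S1_a_at). For rbcl it was -0.37 (TaAffx.128414.16.S1_at), -0.19 (TaAffx.128414.196.S1_at) and -0.62 (TaAffx.128414.37.S1_at). The limma interaction test called none of the 17, without or with the block, and for the first 5 its adjusted p was 1 without the block and 0.81 with it.

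Ta.18621.1.S1_at had the largest of these values. It read 9.66, 9.74, 9.14 and 9.08 in Pavon76 (well-watered 1 and 2, stressed 1 and 2) and 9.05, 9.14, 9.67 and 9.28 in Null Control. Pavon76 was higher under well water and Null Control under stress, and Pavon-TL read 9.56 to 9.75 on all 4 arrays.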

How the results depend on the processing

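The numbers of arrays limit every value here, and 1 array left out leaves 1 in its group. Averaged over the water conditions, the count of 3 became 9 with the replicate block. That fit is 1 of the blocked alternatives counted below, also for the 6 probe sets called with the block only. Its pass is the only one of Ta.1717.1.S1_x_at. The count became 18 with the block and the 8 arrays alone, and 7 with the block and the brighter probe sets (those above the median level). It was 4 with the 8 arrays alone, 3 with the level filter, median scaling or the variance trend, and 3 to 15 with 1 array left out (6 to 15 with the block). Leaving out the second stressed Null Control and second well-watered Pavon-TL arrays together, chosen after seeing the data, gave 2, and 7 with the block. Ta.28803.1.A1_at and Ta.3211.1.S1_at passed limma's threshold in 25 of 25 alternatives, and TaAffx.64850.1.A1_at in 24 (highest limma adjusted p 0.0749, without those 2 arrays). Of the 6 probe sets called with the block only, TaAffx.119948.1.A1_at, Ta.14556.3.A1_at and Ta.11097.1.A1_at passed in 12 of 12 blocked alternatives and 1 of 13 others each. Ta.14470.3.S1_at passed in 7 of 12 blocked ones, TaAffx.37709.1.S1_at in 5 of 11 and Ta.1717.1.S1_x_at in 1 of 12, and these 3 passed in 0 of the others.

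Under well water the count of 3 became 7 with the block, 0 without those 2 arrays (5 with the block), and 0 to 6 with 1 array left out. Without the block it was 0 or 1 when that array was well-watered and 2 when it was stressed. Under stress the count of 3 became 5 with the block, 8 with the block and the 8 arrays alone, 0 without those 2 arrays, and 0 to 9 with 1 array left out. Fewer arrays were in these fits.

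None of the 9 called probe sets changed direction, and the interaction count was 0 in all alternatives run. Without the block the direction of the 9 was fixed when arrays were left out, since their arrays did not overlap between the genotypes. Of the named results, 14 changed direction, none of them called. With 1 array left out, their log2 differences ranged from -0.59 to 0.061 (wcH2A-9, Ta.27657.12.S1_at), -0.31 to 0.028 (6-FEH), -0.79 to 0.11 (XTH), -0.19 to 0.017 (eIF-2-beta), -0.36 to 0.0038 (GSTZ1), -0.77 to 0.16 (TUBA), -0.029 to 0.11 (LTP3), -0.074 to 0.17 (hsp16.9A), -0.88 to 0.33 (DMAS1), -0.23 to 0.092 (PFK), -0.18 to 0.32 (COMT1), -0.43 to 0.31 (FKBP70), -0.25 to 0.20 (ALMT1) and -0.089 to 0.11 (IVR1). Without the 2 arrays named above, 6 of these turned: eIF-2-beta 0.017, TUBA 0.16, LTP3 -0.012 (-0.044 with the block), DMAS1 0.23, FKBP70 0.31 and, with the block, IVR1 -0.069. The cause was not tested.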
